A study of Mus musculus with 12 samples.

Results

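Receptors through which sympathetic nerves, adenosine and an orphan Gs-coupled protein act on fat were followed at the transcript level in mouse inguinal white adipose tissue (iWAT), the subcutaneous depot in which beige adipocytes form upon cold. The set comprised the β-adrenergic receptors Adrb1 and Adrb3, the α-adrenergic receptors Adra1a and Adra2a, the adenosine receptors Adora1, Adora2a and Adora2b, and Gpr3. The rule for the set is a list of gene symbols with no threshold on a measured value, but the list was drawn up with earlier results of these data known. All 8 were found among its 23420 genes. RNA was sequenced from the iWAT of 12 male C57BL/6 mice aged 10 weeks, divided into 4 groups of 3. All mice carried HIF2a loxP/loxP alleles. WT mice had no Cre, whereas HIF2α AKO mice carried Adipoq-Cre, whose adiponectin promoter is active in adipocytes, so that the other cells of the tissue keep the gene and effects of Cre and of the deletion cannot be told apart. Mice of each genotype were kept either at thermoneutrality (TN, 30 °C) for 1 week or in the cold (4 to 6 °C) for 3 days, so that temperature and length of exposure changed together.

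Norepinephrine released from sympathetic nerves acts on fat cells through receptors of opposite effect. β-adrenergic receptors couple to Gs, which raises cAMP and activates protein kinase A (PKA), lipolysis and the thermogenic gene program, whereas α2-adrenergic receptors couple to Gi, which lowers cAMP, and α1-adrenergic receptors couple to Gq, which raises calcium. Adenosine follows the same logic, with the A1 receptor on Gi and both A2 receptors on Gs. GPR3 couples to Gs without a ligand, so that its signal follows its own abundance.

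The DNA before the RefSeq transcription start (250 bases, assembly GRCm38.p6, 5′ to 3′ on the gene's strand) is shown for 4 of the receptors. Gpr3, Adrb1 and Adora1 are shown because they were called higher in the cold in WT, and Adra2a because it was not. Only windows that hold letters of a motif relevant to cAMP or to HIF are shown, so that each has a match by this choice. Capitals mark TGACG, the core of the cAMP response element bound by CREB, and ACGTG, the core of the HIF response element, each searched on both strands, where they read CGTCA and CACGT. In Adra2a the matches to ACGTG on both strands overlap.
Gpr3, chr4:133212537-133212786, minus strand: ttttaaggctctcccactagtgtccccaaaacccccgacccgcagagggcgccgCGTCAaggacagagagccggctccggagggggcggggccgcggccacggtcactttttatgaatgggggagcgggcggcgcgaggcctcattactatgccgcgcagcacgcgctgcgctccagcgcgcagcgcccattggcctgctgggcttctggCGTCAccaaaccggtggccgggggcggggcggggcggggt
Adrb1, chr19:56721867-56722116, plus strand: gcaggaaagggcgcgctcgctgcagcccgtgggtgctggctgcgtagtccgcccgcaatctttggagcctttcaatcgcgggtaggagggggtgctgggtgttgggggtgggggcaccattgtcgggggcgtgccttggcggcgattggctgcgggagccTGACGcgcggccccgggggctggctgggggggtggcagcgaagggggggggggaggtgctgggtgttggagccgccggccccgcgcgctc
Adra2a, chr19:54045009-54045258, plus strand: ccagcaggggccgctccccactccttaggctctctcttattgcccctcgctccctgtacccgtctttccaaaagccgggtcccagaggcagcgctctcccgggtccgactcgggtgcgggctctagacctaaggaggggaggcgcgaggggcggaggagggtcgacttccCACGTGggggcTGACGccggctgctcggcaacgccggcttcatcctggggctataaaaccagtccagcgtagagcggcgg
Adora1, chr1:134235458-134235707, minus strand: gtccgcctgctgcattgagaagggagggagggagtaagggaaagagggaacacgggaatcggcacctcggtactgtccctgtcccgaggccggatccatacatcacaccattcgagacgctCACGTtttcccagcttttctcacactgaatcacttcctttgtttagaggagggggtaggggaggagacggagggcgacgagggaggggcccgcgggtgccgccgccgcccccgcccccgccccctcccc
Distances run from the first letter of a match, read along the gene's strand, to the start. Gpr3 has TGACG on the other strand at 196 and 40 bases, Adrb1 has it on its own strand at 90 bases, and Adra2a has it on its own strand at 69 bases. The ACGTG matches of Adra2a lie at 79 bases on its own strand and at 80 bases on the other, and that of Adora1 lies on the other strand at 129 bases. Among all 32851 RefSeq windows of this length, 17.8% hold TGACG, 16.6% hold ACGTG and 1.55% hold the full element TGACGTCA, which none of the members' windows holds. A second window of Adora1 and the window of Adora2b hold none of these letters. In total 5 of the 8 members had a window, 6 windows in all, and Adrb3, Adra1a and Adora2a had none in the table used. The window of Adra2a, with its matches, lies inside the span annotated for the gene in GENCODE, 54044151 to 54048982. That span begins before the RefSeq start used here. A match describes letters only, and no binding was measured here.

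The libraries held between 22368316 and 35204631 counts on genes. Values are given as CPM, the counts scaled to library size with TMM factors, and as CPM per kb of exon where genes are compared with each other. Tests are from a single edgeR quasi-likelihood fit of the 4 groups over 15306 genes, and a gene is called at an adjusted p under 0.05. Epas1, which encodes HIF2α, was counted over the whole gene and did not fall with the label HIF2α AKO, with 743 to 986 CPM against 562 to 743 CPM in cold WT and 289 to 394 CPM against 278 to 430 CPM at TN. Each HIF2α AKO group is therefore named by its label, here and in every comparison. By RT-qPCR, the study reported lower Hif2a (Epas1) mRNA in iWAT of its HIF2α AKO mice. Why the whole-gene counts differ from that measurement was not tested. Adipoq, the adipocyte hormone gene, stood between 899 and 2467 CPM in every library, and Ucp1, the uncoupling protein of thermogenic fat, at no more than 3.85 CPM in any TN library and at no less than 2171 CPM in any cold library. Libraries TN HIF2α AKO replicate 2 and cold HIF2α AKO replicate 1 stood apart in skeletal muscle transcripts, with 1956 and 1720 CPM summed over 12 markers against 16.3 to 116 CPM in the other 10, and TN WT replicate 3 stood apart in 6 epithelial markers, with 255 CPM against 3.73 to 11.5 CPM. In bulk tissue, fewer cells of a type and less RNA per cell cannot be told apart.

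Per kb of exon, Adrb3 was the most abundant of these receptors in each of the 12 libraries. In TN WT it stood at 181 ± 49.1 CPM per kb (SD, n = 3), above Adora2a at 12.7 ± 2.52 and Adora1 at 5.99 ± 2.82. Below these came Adra2a at 2.73 ± 0.244, Adra1a at 2.12 ± 0.848, Adora2b at 1.08 ± 0.308 and Adrb1 at 0.911 ± 0.259, 4 genes whose neighbours in this order overlapped between libraries, as did Adora1 with Adra2a. Gpr3 came last at 0.0281 ± 0.0310, apart from all others. The order at TN was the same in HIF2α AKO, where Adora2a and Adora1 overlapped.

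In the cold the order of the means was different. Adrb3 stayed first in WT at 97.1 ± 42.2 CPM per kb (SD, n = 3), Adora1 came second at 15.01 ± 5.64, and Adra1a reached 9.49 ± 3.43, beside Adora2a at 9.94 ± 1.04. The libraries of these 3 overlapped with each other, and all lay below those of Adrb3. In cold HIF2α AKO, Adrb3 stood at 118 ± 66.1. Adrb1 at 2.11 ± 1.13 stood above Adra2a at 1.61 ± 0.664 in mean, with overlap, whereas in cold HIF2α AKO the 3 libraries of Adrb1, at 3.91 ± 0.374, were all above those of Adra2a, at 1.80 ± 0.479. Gpr3 remained the lowest at 0.450 ± 0.256 in WT and 0.600 ± 0.184 in HIF2α AKO, and its libraries overlapped with those of Adora2b in both.

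**Figure D1:**
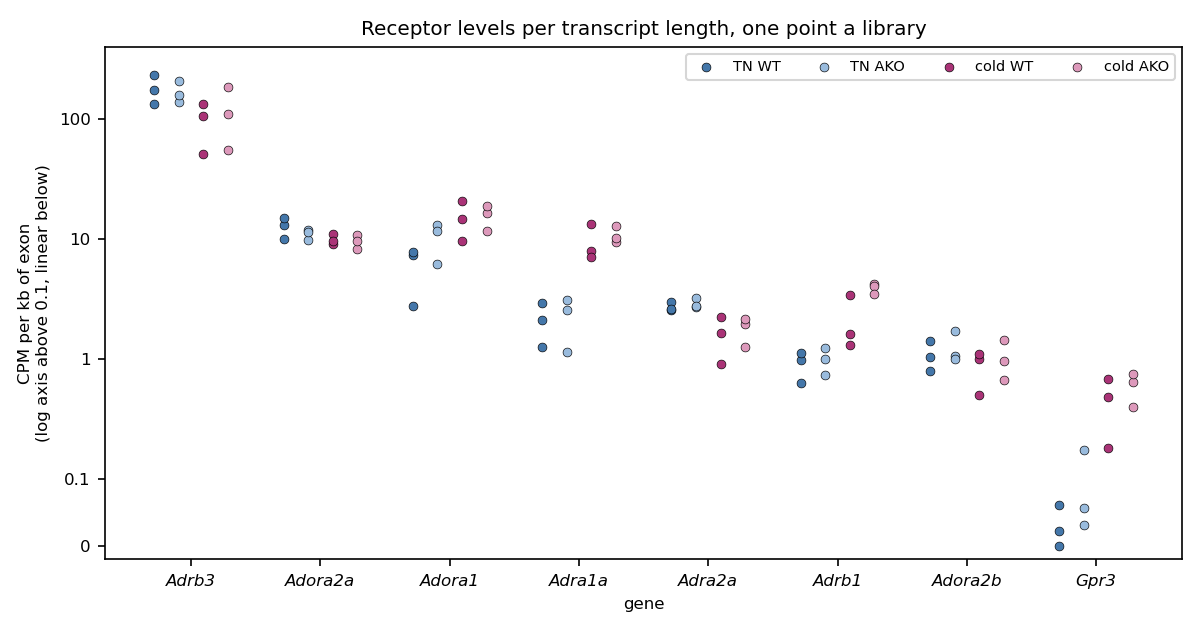
Level of each receptor in CPM per kb of exon (vertical axis, logarithmic above 0.1 and linear below), with a point for each of the 12 libraries coloured by group and genes ordered along the horizontal axis. Adrb3 lies between 50.9 and 233 CPM per kb, no other receptor exceeds 20.8, and Gpr3 lies at or below 0.754.

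Cold exposure was compared with TN in each genotype to ask which of the receptors change when beige adipocytes form. In WT, 4 of the 8 receptors were called, all higher in the cold, namely Gpr3, Adra1a, Adora1 and Adrb1. In HIF2α AKO, 3 of the 8 were called, Gpr3, Adra1a and Adrb1, again all higher. Without the 2 muscle-rich libraries, an alternative chosen after seeing the data, 3 were called in WT, where Adora1 was lost (adjusted p = 0.0613), and 2 in HIF2α AKO, where Gpr3 was lost (adjusted p = 0.101). Among all genes tested, 15.6% were called higher in the cold in WT and 15.6% in HIF2α AKO, and 21.3% and 27.0% were called in either direction. Gpr3 passed the filter on low counts only through the cold libraries, so it could be tested only because it was high there, and its call is no support for a count over the set. Leaving Gpr3 aside, 3 of the other 7 receptors were called in WT and 2 of 7 in HIF2α AKO. As a description, the median log2 fold change of the 8 receptors, Gpr3 included, was 0.44 in WT and 0.19 in HIF2α AKO, against -0.03 and -0.05 over all genes tested. The libraries of cold and TN did not overlap for 6 of the 8 in WT and for 4 of the 8 in HIF2α AKO, beside 42.0% and 50.5% of all genes tested. Both counts include Gpr3, which passed the filter only through its cold libraries, so they are no support for a result over the set.

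**Figure D2:**
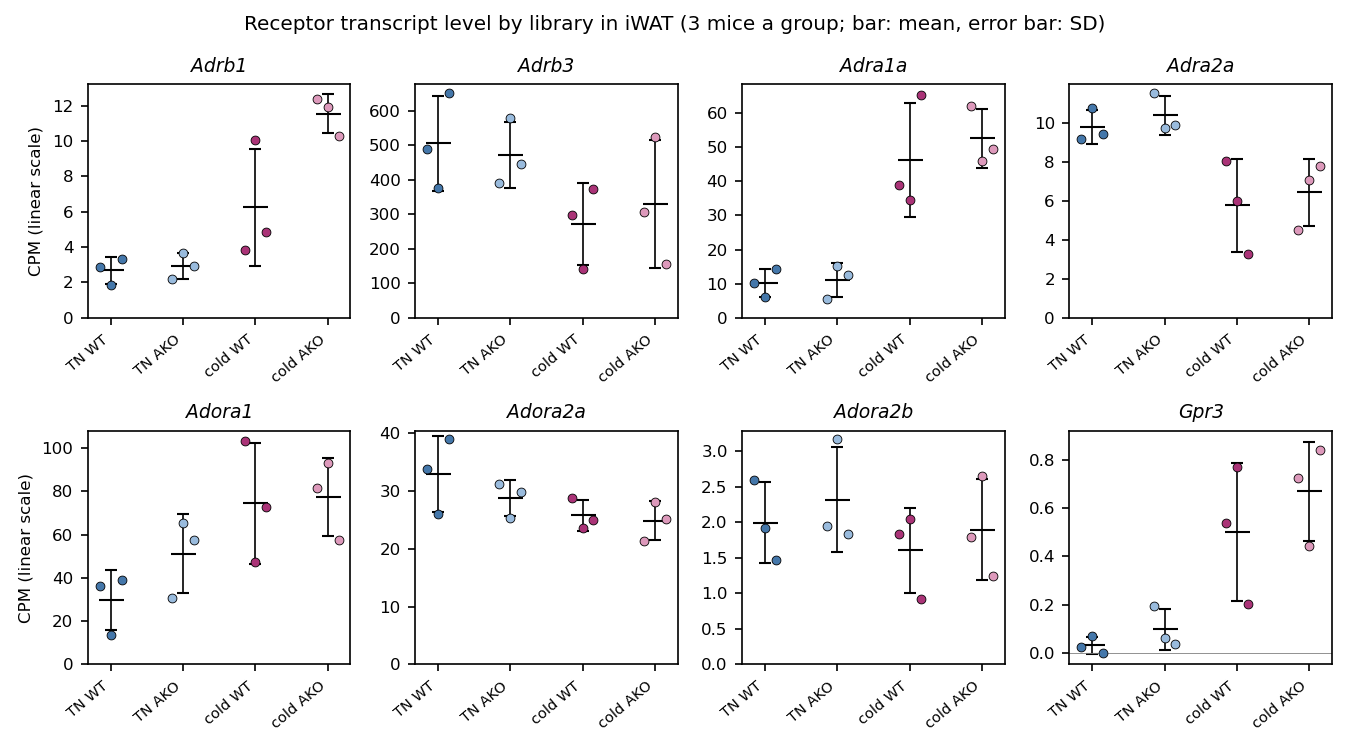
CPM of each receptor (vertical axes, linear) in the 3 libraries of each group, with the mean as a bar and the SD as an error bar. Adra1a lies between 34.6 and 65.4 CPM in the cold and between 5.61 and 15.3 CPM at TN, and Adrb1 is highest in cold HIF2α AKO, at 10.3 to 12.4 CPM.

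Adrb3, the β3-adrenergic receptor that is confined largely to fat and is the target of selective β3 agonists (Ensembl ENSMUSG00000031489, GRCm38 chromosome 8, 27225776 to 27250616, minus strand), was lower in mean in the cold but was not called. Its CPM was 490, 377 and 650 in TN WT and 299, 142 and 373 in cold WT. All cold WT libraries lay below all TN WT libraries, the nearest by a few CPM. The log2 fold change was -0.90 (standard error, SE, 0.43, 95% confidence interval -1.84 to 0.05, adjusted p = 0.145). In HIF2α AKO the CPM was 391, 578 and 445 at TN and 307, 523 and 156 in the cold, and here the groups overlapped. The log2 fold change was -0.52 (SE 0.43, adjusted p = 0.371). The spread was widest in cold HIF2α AKO, with 329 ± 185 CPM (SD, n = 3). An annotated antisense gene, Gm45470, shares 545 exonic bases with Adrb3 on the other strand, and whether counting used strand is not given in the sources used here.

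Adrb1, the β1-adrenergic receptor (ENSMUSG00000035283, chromosome 19, 56722199 to 56733113, plus strand), rose in the cold in both genotypes. It stood at 2.88, 1.85 and 3.34 CPM in TN WT and at 3.85, 10.0 and 4.83 CPM in cold WT. Cold WT replicate 2 stood well above every other WT library, and the remaining cold libraries were just above TN. Its rise on the log2 scale was 1.21 (SE 0.35, adjusted p = 0.0325), and it was 0.66 (adjusted p = 0.1001) without cold WT replicate 2. The call was lost as well without TN WT replicate 1 (adjusted p = 0.0746) or replicate 2 (adjusted p = 0.123), with the WT libraries fitted alone (adjusted p = 0.0971), and with the replicate number as a block (adjusted p = 0.0631). In HIF2α AKO, Adrb1 was at 2.18, 3.64 and 2.93 CPM at TN and at 12.4, 11.9 and 10.3 CPM in the cold, without overlap. The rise was 1.98 on the log2 scale (SE 0.35, adjusted p = 0.00308), and it ranged from 1.81 to 2.17 when each library was left out in turn, with an adjusted p of at most 0.0186.

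Gpr3 (ENSMUSG00000049649, chromosome 4, 133209340 to 133212536, minus strand), which signals through Gs in the absence of ligand, rose from near 0. In TN WT its counts were 1, 2 and 0, and in TN HIF2α AKO 5, 2 and 1. In cold WT they were 12, 18 and 5, and in cold HIF2α AKO 15, 11 and 21. All cold libraries of a genotype were above its TN libraries, the nearest being cold WT replicate 3, at 0.201 CPM against 0.0685 CPM in TN WT. Because so few reads were counted at TN, the ratio of the summed counts is given with its counting interval, which does not cover the spread between mice. It was 16.2 (95% exact interval 5.09 to 82.1) in WT, from 35 against 3 counts scaled to library size, and 7.15 (3.35 to 17.5) in HIF2α AKO, from 47 against 8 counts. With no filter on low counts, the adjusted p was 0.0120 in WT and 0.0205 in HIF2α AKO. After the filter, which Gpr3 passed through its cold libraries, it was 0.00855 in WT and 0.0145 in HIF2α AKO, and the latter was 0.0570 without TN HIF2α AKO replicate 3 and 0.101 without both muscle-rich libraries. Cd164l2, on the other strand, shares 111 exonic bases with Gpr3, and at 3.50 to 5.43 CPM in cold WT and 2.88 to 3.68 CPM in cold HIF2α AKO it was counted more often than Gpr3. From TN to cold its log2 fold change was 1.39 (adjusted p = 0.0556) in WT and 0.07 (adjusted p = 0.918) in HIF2α AKO, and its part in the counts of Gpr3 was not tested.

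Adra1a, the α1A-adrenergic receptor that acts through Gq and calcium (ENSMUSG00000045875, chromosome 14, 66635251 to 66771168, plus strand), rose in both genotypes. Its CPM was 10.3, 6.17 and 14.4 in TN WT and 38.8, 34.6 and 65.4 in cold WT. In HIF2α AKO it was 5.61, 15.3 and 12.4 at TN and 62.2, 45.9 and 49.6 in the cold. Each cold library exceeded each TN library of either genotype. The rise was 4.49-fold in WT (log2 fold change 2.17, SE 0.39, adjusted p = 0.00415) and 4.71-fold in HIF2α AKO (log2 fold change 2.24, SE 0.39, adjusted p = 0.00283). With each library left out in turn, the log2 fold change ranged from 1.83 to 2.48 in WT and, in HIF2α AKO, from 1.92 to 2.54, with adjusted p of at most 0.0220 and 0.0132.

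Adra2a, the α2A-adrenergic receptor that restrains lipolysis through Gi (ENSMUSG00000033717, chromosome 19, 54044151 to 54048982, plus strand), was lower in mean in the cold and was not called. It was at 9.17, 10.8 and 9.42 CPM in TN WT and at 8.05, 5.98 and 3.30 CPM in cold WT. In HIF2α AKO it was at 11.6, 9.73 and 9.90 CPM at TN and at 4.50, 7.08 and 7.77 CPM in the cold. No cold library reached the level of any TN library. The log2 fold change was -0.76 (SE 0.28, 95% confidence interval -1.39 to -0.14, adjusted p = 0.0756) in WT and -0.69 (SE 0.28, 95% confidence interval -1.31 to -0.06, adjusted p = 0.0894) in HIF2α AKO. It was called lower by DESeq2 in WT (adjusted p = 0.0305), without cold WT replicate 1 in WT (log2 fold change -1.08, adjusted p = 0.0299), and in HIF2α AKO with those libraries fitted alone (adjusted p = 0.0470) or without cold WT replicate 3 (adjusted p = 0.0296).

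Adora1, the Gi-coupled A1 adenosine receptor through which adenosine restrains lipolysis in adipocytes (ENSMUSG00000042429, chromosome 1, 134199223 to 134235431, minus strand), rose in the cold in WT. Its CPM was 36.5, 13.7 and 39.1 in TN WT and 103, 47.5 and 72.6 in cold WT, without overlap. Its rise was 1.32 on the log2 scale (SE 0.42, adjusted p = 0.0443), close to the limit. Of the 12 fits that left out a library, the adjusted p was above 0.05 in those without cold HIF2α AKO replicate 1, 2 or 3, cold WT replicate 1 or 3, TN HIF2α AKO replicate 3, or TN WT replicate 1 or 2, with a highest value of 0.127. Over all 12 such fits, the log2 fold change ranged from 0.96 to 1.57. The call was also lost with the WT libraries fitted alone (adjusted p = 0.0896) and with the replicate number as a block (adjusted p = 0.0720). In HIF2α AKO, Adora1 was at 30.7, 65.4 and 57.6 CPM at TN and at 81.7, 93.2 and 57.7 CPM in the cold. Here the groups overlapped, with a log2 fold change of 0.60 (SE 0.41, adjusted p = 0.283). The rise in WT and that in HIF2α AKO were not shown to differ (interaction -0.73, SE 0.58, 95% confidence interval -2.001 to 0.55, adjusted p = 1.00). Mybph, a gene of muscle that shares 1162 exonic bases with Adora1 on the other strand, stood at 1.07 CPM or less in every library.

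Adora2a, the Gs-coupled receptor for adenosine known from adipocytes and from T cells and macrophages (ENSMUSG00000020178, chromosome 10, 75316877 to 75334784, plus strand), was not called. It lay at 33.8, 26.1 and 39.1 CPM in TN WT, 28.8, 23.6 and 24.98 CPM in cold WT, 31.2, 25.3 and 29.9 CPM in TN HIF2α AKO and 21.3, 28.1 and 25.2 CPM in cold HIF2α AKO. The groups overlapped in both genotypes. The log2 fold change from TN to cold was -0.35 (SE 0.16, adjusted p = 0.119) in WT and -0.21 (SE 0.16, adjusted p = 0.320) in HIF2α AKO. Adora2b, the Gs-coupled receptor of low affinity for adenosine (ENSMUSG00000018500, chromosome 11, 62248984 to 62266453, plus strand), was scarce, at 0.925 to 3.17 CPM over all libraries. Its log2 fold change was -0.32 (95% confidence interval -1.16 to 0.52) in WT and -0.29 (95% confidence interval -1.13 to 0.54) in HIF2α AKO, and its groups overlapped.

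**Figure D3:**
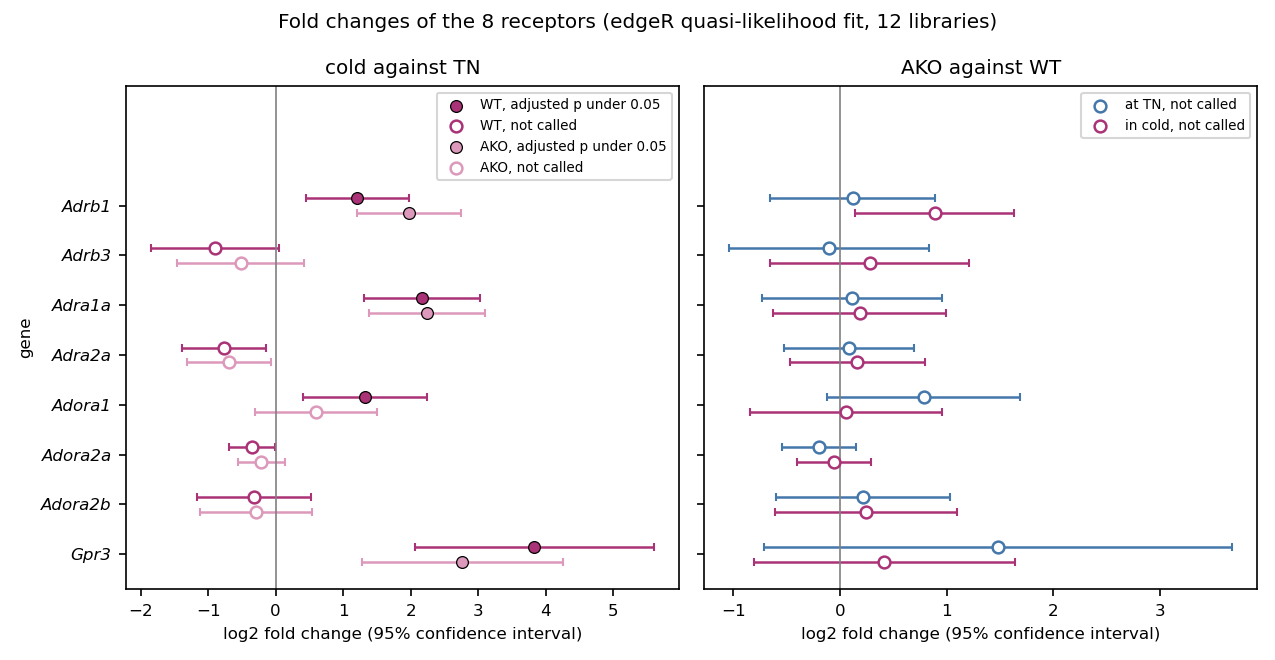
Log2 fold change (horizontal axis) with its 95% confidence interval for each receptor, cold against TN on the left and HIF2α AKO against WT on the right, with filled points at an adjusted p under 0.05. Filled points are those of Adrb1, Adra1a, Adora1 and Gpr3 in WT and of Adrb1, Adra1a and Gpr3 in HIF2α AKO, all on the left.

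Markers of cell types were followed beside the receptors, and their counts of calls stand against 21.3% of all genes tested called in either direction in WT and 27.0% in HIF2α AKO. Only the beige list in both genotypes, and in WT the white adipocyte list and the Schwann cell list with 1 of 4, exceeded these shares. In the Schwann cell list in WT, the called gene was the only 1 of the 4 with a fitted rise. The median log2 fold change of that list in WT was -0.31. The summed CPM of 8 white adipocyte markers was 11460 to 22659 in TN WT and 22774 to 42855 in cold WT, and 16692 to 27895 and 28921 to 33262 in HIF2α AKO, and 3 of 8 in WT and 2 of 8 in HIF2α AKO were called higher. All 6 beige adipocyte markers were called higher in both genotypes, with sums of 12.1 to 54.2 CPM in TN WT, 3274 to 4797 CPM in cold WT, 30.5 to 60.8 CPM in TN HIF2α AKO and 5527 to 8459 CPM in cold HIF2α AKO. Of 8 lymphocyte markers, 1 in WT and 2 in HIF2α AKO were called lower, with sums of 937 to 1410 CPM in TN WT against 527 to 894 CPM in cold WT and 871 to 1421 CPM against 508 to 783 CPM in HIF2α AKO. Of 8 macrophage markers, none was called in WT and 2 were called lower in HIF2α AKO, with sums of 1557 to 2776 CPM in TN WT, 1262 to 2556 CPM in cold WT, 2524 to 2745 CPM in TN HIF2α AKO and 1438 to 1674 CPM in cold HIF2α AKO. Among markers of the other cell types, 1 of 6 endothelial markers and 1 of 4 Schwann cell markers were called higher in HIF2α AKO, the latter also in WT, 1 of 6 epithelial markers was called lower in WT and 1 of 4 progenitor markers in HIF2α AKO, and none of 5 mural and of 12 muscle markers was called. Cold WT replicate 2, which had the highest Adrb1 and the lowest Adrb3 of the cold WT libraries, had the lowest white adipocyte sum among them (22774 CPM) and the highest beige sum (4797 CPM). No marker of these lists was at 0 throughout a group. The part of these marker levels in the changes of Adra1a, Adrb1, Gpr3, Adora1, Adrb3, Adra2a and Adora2a was not tested.

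Cold and TN libraries also stood apart in the balance of the receptors by G protein class. Of the summed CPM per kb of the 8 receptors, those coupled to Gs made up 94.8% ± 0.679 (SD, n = 3) in TN WT and 80.3% ± 2.76 in cold WT, and 92.2% ± 1.27 and 80.7% ± 6.25 in HIF2α AKO. Adra1a, the sole Gq member, went from 0.999% ± 0.156 to 7.15% ± 1.69 in WT and from 1.12% ± 0.364 to 7.69% ± 3.41 in HIF2α AKO. The Gi members Adora1 and Adra2a together went from 4.21% ± 0.595 to 12.5% ± 3.25 in WT and from 6.65% ± 0.931 to 11.6% ± 2.87 in HIF2α AKO. Cold and TN libraries did not overlap in any of these 3 shares in either genotype. The shares are dominated by Adrb3, which was 87.6% ± 0.995 of the sum in TN WT and 69.3% ± 7.87 in cold WT. In HIF2α AKO it was 85.2% ± 1.37 at TN and 70.1% ± 10.5 in the cold. The Gs members other than Adrb3 were higher in mean in the cold, with overlap. They made up 7.24% ± 0.684 in TN WT and 11.0% ± 5.40 in cold WT. In HIF2α AKO they made up 6.99% ± 1.58 and 10.6% ± 4.36. Among the Gs members, it was thus the share of Adrb3 that was lower in the cold, and the level of Adrb3 was not called. A share also falls when other members of the sum rise, and Adra1a in both genotypes and Adora1 in WT were called higher. How much of the lower Gs share lay in each was not tested. Shares weigh transcripts, not receptor protein or signalling.

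Receptors of the same ligand were also set against each other within each library. Adrb1 was 0.465 to 0.556% of Adrb3 per kb in TN WT and 1.22 to 6.69% in cold WT, and 0.528 to 0.624% and 2.16 to 6.24% in HIF2α AKO. Adra1a was 0.421 to 1.13 times Adra2a in TN WT and 3.55 to 14.6 times in cold WT, and 0.358 to 1.16 and 4.70 to 10.2 times in HIF2α AKO. The ratio of Adora1 to Adora2a was 0.274 to 0.564 in TN WT and 1.05 to 1.88 in cold WT, but 0.514 to 1.35 and 1.197 to 2.003 in HIF2α AKO, with overlap. Shares and ratios were compared in 24 two-sided exact permutation tests of 3 libraries against 3, which cannot give a p below 0.1, and this smallest value was reached in the 13 comparisons without overlap (adjusted p = 0.185).

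**Figure D4:**
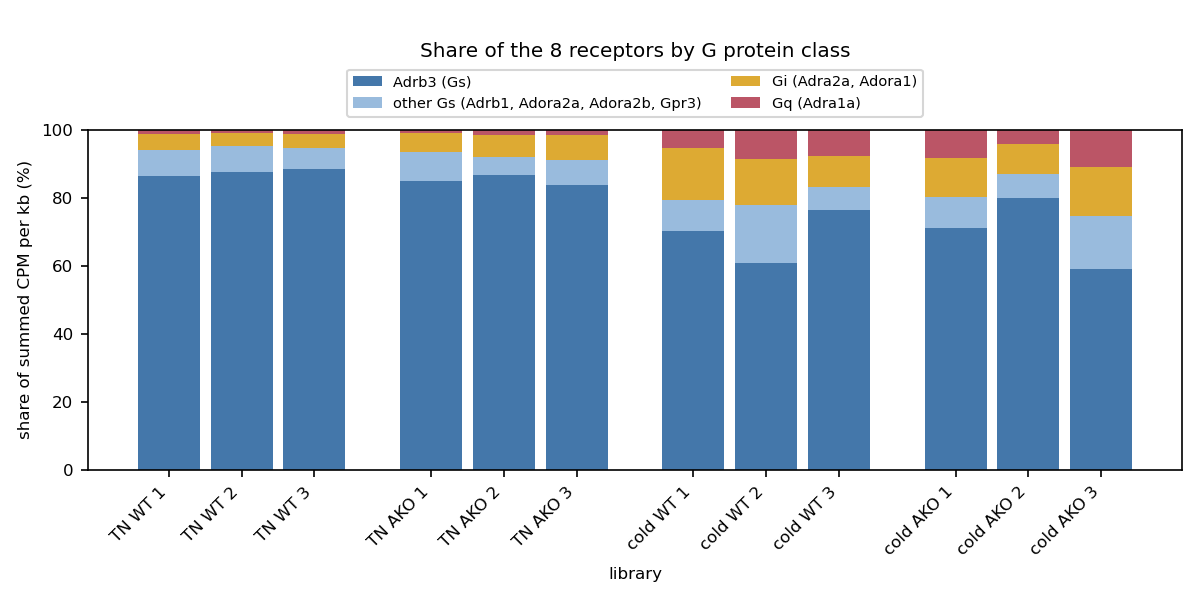
Share of each G protein class in the summed CPM per kb of the 8 receptors (vertical axis, percent) in each of the 12 libraries, with Adrb3 drawn apart from the other Gs-coupled members. The Gq share of Adra1a is between 4.03 and 10.8% in cold libraries and between 0.700 and 1.35% in TN libraries.

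HIF2α AKO was compared with WT at each temperature to ask whether the receptors follow the labelled genotype. At TN, none of the 8 receptors was called by edgeR or DESeq2, and none had an unadjusted p under 0.05 in edgeR. DESeq2 gave no adjusted p for Adrb1, Adora2b and Gpr3 at TN. Of all genes tested, edgeR called 0.00653%, and 446 had an unadjusted p under 0.05 in edgeR. DESeq2 called 11 genes at TN. Adora1 had the largest difference in level among the more abundant members, with a log2 fold change of 0.78 (SE 0.41, 95% confidence interval -0.12 to 1.69, adjusted p = 1.00), and Gpr3, with 8 against 3 counts in all, had 1.48 (95% confidence interval -0.71 to 3.68). The other 6 lay between -0.20 and 0.22. For Adora2a the interval was narrowest, from -0.54 to 0.15, and for Adrb3 it ran from -1.04 to 0.83. No receptor separated the libraries of the genotypes at TN, beside 7.69% of all genes tested. The Gi share was higher in each TN HIF2α AKO library (5.71 to 7.57%) than in each TN WT library (3.75 to 4.88%). The Gs share was lower in each (91.1 to 93.6% against 94.1 to 95.4%). Both had an exact permutation p of 0.1. They are parts of the same sum and so not separate observations.

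In the cold, again none of the 8 was called by edgeR or DESeq2, beside 0.00653% of all genes tested in edgeR and 7 genes in DESeq2. In edgeR, 1 of the 8, Adrb1, had an unadjusted p under 0.05, as did 451 of the 15306 genes tested. Adrb1 was at 12.4, 11.9 and 10.3 CPM in cold HIF2α AKO and at 3.85, 10.0 and 4.83 CPM in cold WT, so that the groups did not overlap but nearly met, at 10.3 CPM against 10.04 CPM. Groups without overlap were found for 7.53% of all genes tested. The log2 fold change was 0.89 (SE 0.34, 95% confidence interval 0.14 to 1.63, unadjusted p = 0.0239, adjusted p = 1.00). It was 1.44 (unadjusted p = 0.000435, adjusted p = 0.844) without cold WT replicate 2, 0.64 (unadjusted p = 0.0906, adjusted p = 1.00) without cold WT replicate 1 and 0.83 (unadjusted p = 0.0607, adjusted p = 1.00) without both muscle-rich libraries. Under the looser limits of the study's methods, an unadjusted p under 0.15 with an absolute log2 fold change above 0.2, Adrb1 was the sole receptor to pass, and 8.98% of all genes tested passed. The summed beige markers were also higher in each cold HIF2α AKO library than in each cold WT library, and their part in the difference of Adrb1 was not tested.

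For the other 7 receptors, every interval of the genotype difference in the cold included 0. Their log2 fold changes lay between -0.05 for Adora2a and 0.42 for Gpr3, with intervals of -0.40 to 0.29 and -0.80 to 1.64. Adrb3 was at 0.28 (95% confidence interval -0.66 to 1.21), Adra1a at 0.18 (-0.63 to 1.00), Adra2a at 0.16 (-0.47 to 0.79), Adora1 at 0.06 (-0.84 to 0.95) and Adora2b at 0.24 (-0.61 to 1.10). The direction of Adrb3, Adra2a, Adora1, Adora2a and Adora2b turned when a single library was left out. The change of the cold response with genotype was tested as an interaction, and none of the 8 receptors passed, beside 0% of all genes tested, with 327 genes at an unadjusted p under 0.05, none of them a member, and no gene called by DESeq2. For Adrb1 the interaction was 0.77 (SE 0.49, 95% confidence interval -0.31 to 1.84), or 1.34 (unadjusted p = 0.00471, adjusted p = 1.00) without cold WT replicate 2, and for Gpr3 it was -1.07 (SE 1.10). Averaged over both temperatures, none of the 8 was called by edgeR or DESeq2, beside 0.00653% of all genes tested in edgeR and 12 genes in DESeq2. None had an unadjusted p under 0.05 in edgeR, where Adrb1 was at 0.50 (SE 0.24, unadjusted p = 0.0634). In DESeq2, Adrb1 was at 0.517 with an unadjusted p of 0.0417.

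Other genes of the same pathways were followed in 6 lists, with the signalling steps taken in order. Of 7 further receptors of these families, 5 could be tested and none was called by edgeR in either genotype, where 0 in WT and 1 in HIF2α AKO had an unadjusted p under 0.05 and DESeq2 called 0 and 1. These included Adora3, the A3 adenosine receptor, at 0.895 to 2.64 CPM, and Adra1d, an α1 receptor, at 4.35 to 12.1 CPM with a log2 fold change of 0.34 (SE 0.24, adjusted p = 0.303) in WT. Gpr6 and Gpr12, the closest relatives of Gpr3, had too few counts to be tested. Among 14 other receptors that couple to Gs or Gi in fat, edgeR called none in either genotype, with 4 in WT and 0 in HIF2α AKO at an unadjusted p under 0.05 and 3 and 0 called by DESeq2. Ptger4, a prostaglandin E2 receptor, had a log2 fold change of -0.55 (SE 0.19, adjusted p = 0.0613) in WT. Beside these 2 lists, edgeR called 21.3% of all genes tested in WT and 27.0% in HIF2α AKO. Of the 15306 genes tested, 5960 in WT and 6541 in HIF2α AKO had an unadjusted p under 0.05. DESeq2 called 4591 and 5279 genes.

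Of the 14 tested G protein subunits, 3 were called higher in WT and 4 in HIF2α AKO, none lower, beside 15.6% of all genes tested called higher in each genotype, so that the share in WT was near that of all genes. Gnas, which encodes the Gs α subunit that the β-adrenergic, A2 and GPR3 receptors use, rose from 723 to 921 CPM in TN WT to 1639 to 1722 CPM in cold WT (log2 fold change 1.03, SE 0.18, adjusted p = 0.00366) and from 751 to 947 CPM to 2068 to 3098 CPM in HIF2α AKO (1.52, SE 0.18, adjusted p = 0.000377). Gnao1, an α subunit of the Gi family, rose from 4.69 to 10.3 CPM to 26.1 to 57.6 CPM in WT (2.21, SE 0.39, adjusted p = 0.00385). Gna11, an α subunit of the Gq family, rose by less and passed close to the limit (0.46, SE 0.14, adjusted p = 0.0431). Gnas is an imprinted locus with several overlapping transcripts, which these counts do not separate.

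Of 15 kinases, arrestins and RGS proteins, which curb receptor signalling, 1 was called higher in WT, and 1 was called higher and 2 lower in HIF2α AKO, both shares being below those of all genes tested, of which 21.3% in WT and 27.0% in HIF2α AKO were called in either direction. Adrbk2, an older symbol of the receptor kinase gene Grk3, was at 67.0 to 73.5 CPM in TN WT and at 99.8 to 102 CPM in cold WT, with a log2 fold change of 0.53 (SE 0.12, adjusted p = 0.0136). Of 12 genes of adenosine formation, transport and removal, 2 were called higher in WT, and 1 was called higher and 3 lower in HIF2α AKO, beside the same 21.3% and 27.0% of all genes. Alpl, a phosphatase that can release adenosine from AMP, rose from 9.90 to 17.0 CPM to 19.1 to 24.7 CPM in WT (0.83, SE 0.21, adjusted p = 0.0204) and from 8.41 to 9.43 CPM to 26.3 to 40.6 CPM in HIF2α AKO (1.85, SE 0.22, adjusted p = 0.000369). Slc29a2, a nucleoside transporter, had a log2 fold change of 0.62 (SE 0.17, adjusted p = 0.0276) in WT.

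Downstream, 6 of 12 genes known to be raised by cAMP in fat were called higher in WT and 6 in HIF2α AKO, none lower, beside 15.6% of all genes tested called higher in each genotype. Ucp1 and Dio2 are also among the beige markers above. Dio2, which activates thyroid hormone, went from 0.273 to 1.10 CPM to 201 to 262 CPM in WT, and Ppargc1a, a coactivator of mitochondrial genes, from 5.48 to 7.64 CPM to 28.2 to 52.7 CPM (2.56, SE 0.34, adjusted p = 0.000991). Gadd45g, a stress-inducible gene of brown fat activation, had a log2 fold change of 1.72 (SE 0.21, adjusted p = 0.000691), and that of Ucp1 was 12.61 (SE 0.82). The medians were 0.92 for the cAMP targets, 0.18 for the G proteins, -0.09 for the regulators of receptors, -0.19 for the adenosine genes, 0.34 for the 5 further members of the families and 0.17 for the other receptors in WT, against -0.03 over all genes tested. Between genotypes, no gene of the 6 lists was called at either temperature by edgeR or DESeq2. At TN, unadjusted p was under 0.05 for 2 of 14 G protein, 1 of 12 adenosine and 3 of 12 cAMP target genes. In the cold, it was under 0.05 for 1 of 14 G protein and 1 of 12 adenosine genes. The same held there for 1 of 15 receptor regulation and 2 of 12 cAMP target genes. Over all 15306 genes tested, 446 at TN and 451 in the cold had such a p.

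**Figure D5:**
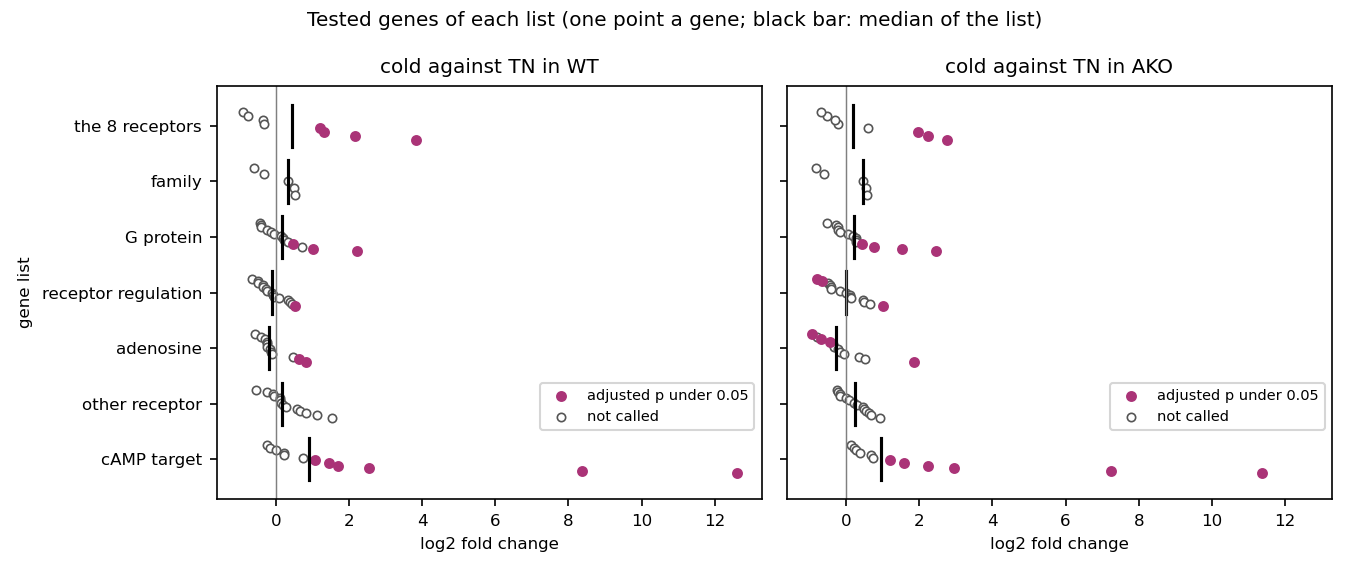
Log2 fold change from TN to cold (horizontal axis) of each tested gene of the 8 receptors and of the 6 lists, in WT on the left and HIF2α AKO on the right, with filled points at an adjusted p under 0.05 and a black bar at each list's median. Ucp1 and Dio2 lie far to the right among the cAMP targets, and the families' further members and the other receptors have no filled point.

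The pattern of each receptor over the 12 libraries was compared with that of 12960 or 12961 other genes with a mean log2 CPM of at least 1, as a description. The libraries share the 4 groups, so that genes with a similar response to temperature come close by construction. Adra1a was closest to C330006A16Rik, St3gal3 and Acat1 (Pearson r of 0.996, 0.995 and 0.995), and Adrb1 to Mcu, the pore of the mitochondrial calcium uniporter, Tamm41 and Sec31a (0.981, 0.970 and 0.955). Gpr3, whose values rest on at most 21 counts, was closest to Akt1, Ifrd2 and Stard5 (0.983, 0.957 and 0.956). Adora1 was closest to Mtmr10, Adarb1 and Sema3g (0.966, 0.965 and 0.963), and Adra2a to Nod1, Mapk11 and Sh3bp5 (0.978, 0.962 and 0.958). Adrb3 was closest to Nr3c2, the mineralocorticoid receptor gene, B3gnt3 and Scn7a (0.919, 0.906 and 0.901), Adora2a to Tapbp, Plekha4 and Tgfb3 (0.914, 0.894 and 0.883), and Adora2b to Slc16a3, Procr and Tnxb (0.905, 0.860 and 0.855).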

How the data were processed

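Of the β-adrenergic receptors, Adrb1 and Adrb3 are analysed here. Per the labels and the study's methods, the authors trimmed reads with Trim Galore 0.4.4, aligned them with STAR 2.6.1d to GRCm38 and counted them per gene with HTSeq 0.13.5. The deposited values are raw counts without normalization. The gene annotation and the strand setting are not given in the sources used here. Reads outside genes (21.9 to 27.0% of those listed) were left out. Counts were fitted with edgeR 4.0.16 (TMM, quasi-likelihood test, filterByExpr at 10 counts and 15 in total, 1 factor of 4 groups, Benjamini-Hochberg over 15306 genes, limit 0.05) in R 4.3.3, with DESeq2 1.42.0 as an alternative, and the code was tested on simulated data. Depth was 22368316 to 35204631 counts, at which a count of 0 allows up to 3, for counting error only. Exon lengths and positions came from GENCODE M21, promoters from RefSeq. Replicate numbers were not used as pairs in the main fit. Of 18 same-numbered pairs, 5 had correlated deviations above 0.1 (range -0.43 to 0.39). Differently numbered pairs were not compared, so pairing by number is not excluded. Named were all 8 receptors and, per list, up to 4 called genes with the largest change in WT or else the 2 with the smallest p. A gene that met this rule is not reported here. The likeness of patterns used Pearson's r of log2 CPM (prior count 2). Members and lists were chosen with earlier results of these data known. Alternatives are given in the closing section.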

Additional observations from a re-analysis of the deposited data

How the results depend on the processing

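Alternatives were RLE size factors, no filter on low counts, DESeq2, fits of the compared groups alone, a replicate block, the study's thresholds in the cold, and each library left out in turn. A fit without the 2 muscle-rich libraries was added after seeing the data. Of 854 alternative fold changes, 792 kept their direction and their side of the limit, 39 reversed, 18 lost the call and 5 gained it, and the cause was not tested. In WT, where 4 receptors were called in the cold, 1 was called with the WT libraries alone, where Gpr3 was not tested, and 2 with the replicate block, in which the blocked fit lost Adrb1 and Adora1. The block changed no other count of calls. Leaving out a library gave 2 to 4 calls in WT and 2 to 4 in HIF2α AKO, and 2 without TN WT replicate 1 or 2. In the cold, 1 receptor (Adrb1) passed the study's thresholds between genotypes, against 0 by adjusted p.

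Reversals concerned values that were never called. With a library left out, the cold response in HIF2α AKO ranged from -0.62 to 0.0032 for Adora2b. The TN genotype difference ranged from -0.27 to 0.12 for Adrb3, -0.086 to 0.30 for Adrb1, -0.19 to 0.43 for Adra1a and -0.080 to 0.46 for Adora2b. That in the cold ranged from -0.23 to 0.61 for Adrb3, -0.12 to 0.48 for Adra2a, -0.15 to 0.37 for Adora1, -0.15 to 0.044 for Adora2a and -0.082 to 0.50 for Adora2b. The interaction ranged from -0.13 to 0.71 for Adrb3, -0.25 to 0.40 for Adra1a, -0.21 to 0.39 for Adra2a and -0.30 to 0.33 for Adora2b. The averaged difference ranged from -0.17 to 0.26 for Adrb3, -0.0016 to 0.32 for Adra1a and -0.015 to 0.28 for Adra2a. Without the muscle-rich libraries, the values were 0.041 for Adora2b in the cold response of HIF2α AKO, -0.072 for Adrb1, -0.19 for Adra1a and -0.081 for Adora2b between genotypes at TN, 0.044 for Adora2a in the cold, and -0.071 for Adra1a averaged. Depth limits Gpr3 and Adora2b.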
